A study of Homo sapiens with 10 samples.

Results

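The 9 genes described here act in the assembly and delivery of iron-sulfur clusters: NFS1 and ISCU in mitochondria, NUBP1, NUBP2, CIAO1 and MMS19 in the cytosol, the adaptor genes YAE1D1 and ORAOV1 (now named YAE1 and LTO1 in RefSeq), and ABCE1, which receives clusters through those adaptors. They are 9 of the 18686 gene symbols in a genome-wide CRISPR knockout screen and were found by symbol. YAE1D1 was chosen from these data, as the gene ranked lowest between T0 and T12 in parental cells and ranked among the highest in the difference between the arms, and the other 8 were chosen as its pathway. The values of YAE1D1 that involve a T0 or T12 library are therefore given as a description, with no test. Each gene had 3 sgRNAs, and all 27 were kept by the filter on low counts (a mean of at least 20 over the libraries).

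The screen used 22Rv1, an established human prostate cancer cell line, in 2 arms: the parental line and a derivative labelled as overexpressing NMYC, the protein of MYCN. The promoter of the NMYC construct is not named in the labels, nor is whether the derivative is 1 clone. Both arms carried Cas9 and an sgRNA from the same lentiviral library after infection at a multiplicity of 0.3 and puromycin selection, and duplicate cultures were then plated and passaged every 72 hours. Per arm, T0 has 1 library while T6 and T12 have 2 each, numbered as replicates 1 and 2, which makes 10 libraries. The unit of the numbers in T6 and T12 is not stated. The series looks for knockouts that are lethal to cells with too much MYCN. The data are counts of sgRNA cassettes in genomic DNA, so the labelled tissue could not be set against marker genes.

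Iron-sulfur clusters are inorganic cofactors of enzymes in respiration, DNA synthesis and repair, and translation. In mitochondria the cysteine desulfurase NFS1 supplies sulfur and clusters are built on the scaffold ISCU. In the cytosol the scaffold proteins NUBP1 and NUBP2 receive clusters that a targeting complex with CIAO1 and MMS19 hands to client proteins. YAE1D1 and ORAOV1 form an adaptor that brings this complex to ABCE1, the ATPase that splits ribosomes after termination. Loss of cells that carry an sgRNA lowers its share of the library, and gain raises it.

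Library totals ran from 8783512 to 18398571 counts, and between 2.98% and 9.15% of the listed sgRNAs had 0 counts. Replicate cultures correlated over sgRNAs at a Spearman rho of 0.329 to 0.48 (4 pairs, sgRNAs being no independent replicates), which lay within the range of 0.3 to 0.492 of the 25 pairs across arms. The labels name no molecular identifiers, so depth speaks for counting error only. Levels are in CPM (counts scaled to the library size, with edgeR's TMM factors), and a gene's level is the sum over its 3 sgRNAs, with mean ± SD over the 2 cultures of a time point; T0 has no SD. A log2 value is the log2 ratio of these sums, each with 0.5 CPM added, relative to the median gene of the 18197 tested. Gene p-values came from rank aggregation of edgeR quasi-likelihood p-values of the sgRNAs, adjusted by Benjamini-Hochberg over all tested genes in each direction. The replicate SD beside a log2 value combines the spread of log2 levels in the duplicated groups that enter it, with no share from T0. Values of separate cultures are each relative to the median gene of that culture.

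YAE1D1 sgRNAs were abundant in the parental T0 library and scarce in every later parental library. HGLibB_54557 had 960 counts at T0 in parental cells, 229 and 1 at T6, then 1 and 8 at T12. HGLibB_54558 had 2531 counts at T0, 360 and 242 at T6, then 254 and 47 at T12. HGLibB_54559 had 1859 counts at T0, 75 and 86 at T6, then 17 and 81 at T12. All 3 sgRNAs thus lay below their T0 level in all 4 later parental libraries. In NMYC cells HGLibB_54557 had 25 counts at T0, 528 and 57 at T6, then 145 and 98 at T12. HGLibB_54558 had 225 at T0, 358 and 97 at T6, then 643 and 341 at T12 in NMYC cells. HGLibB_54559 had 78 at T0, 39 and 15 at T6, then 72 and 668 at T12 there. In CPM, every NMYC library stood below the parental T0 level of each of the 3 sgRNAs.

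Summed over its sgRNAs, YAE1D1 stood at 399 CPM in the parental T0 library, 37.9 and 47.2 CPM in the T6 cultures and 17.6 and 8.45 CPM in the T12 cultures. NMYC cells had 25.5 CPM at T0, 47.5 and 13.5 at T6, then 56.2 and 79.8 at T12. The order from high to low was parental T0, NMYC T12 (68.0 ± 16.7), parental T6 (42.6 ± 6.53), NMYC T6 (30.5 ± 24.1), NMYC T0 and parental T12 (13.0 ± 6.45). The NMYC T6 cultures spread over both the parental T6 mean and NMYC T0 and overlapped parental T12, so these neighbours did not separate beyond their spread, whereas NMYC T12 and parental T6 did not overlap. The log2 value was -4.79 from T0 to T12 in parental cells (replicate SD 0.717), with -4.22 and -5.23 in the separate cultures, and -3.01 from T0 to T6. In NMYC cells it was 1.37 from T0 to T12 (1.38 and 1.63 in the separate cultures) and 0.49 from T0 to T6, where the cultures stood on both sides of 0 at 1.19 and -0.57.

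The T0 libraries of the arms differed in YAE1D1, and both took part in the choice of the gene. With 1 T0 library per arm, a difference of the arms cannot be told apart from one of single libraries. The log2 ratio of the NMYC T0 library to the parental one was -3.95, from single libraries. The difference NMYC minus parental of the changes from T0 to T12 was 6.27 (replicate SD 0.80), while the arms compared directly at T12, without T0, differed by 2.41 (replicate SD 0.80). At T6, the only time point that took no part in the choice of the gene, the arms differed by -0.27 with a replicate SD of 1.28 (edgeR with rank aggregation, adjusted p for lower in NMYC = 0.989), and the cultures overlapped. With the mean of both T0 libraries as the baseline, the change in parental cells was -2.97 and that in NMYC cells -0.58 rather than 1.37.

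**Figure D1:**
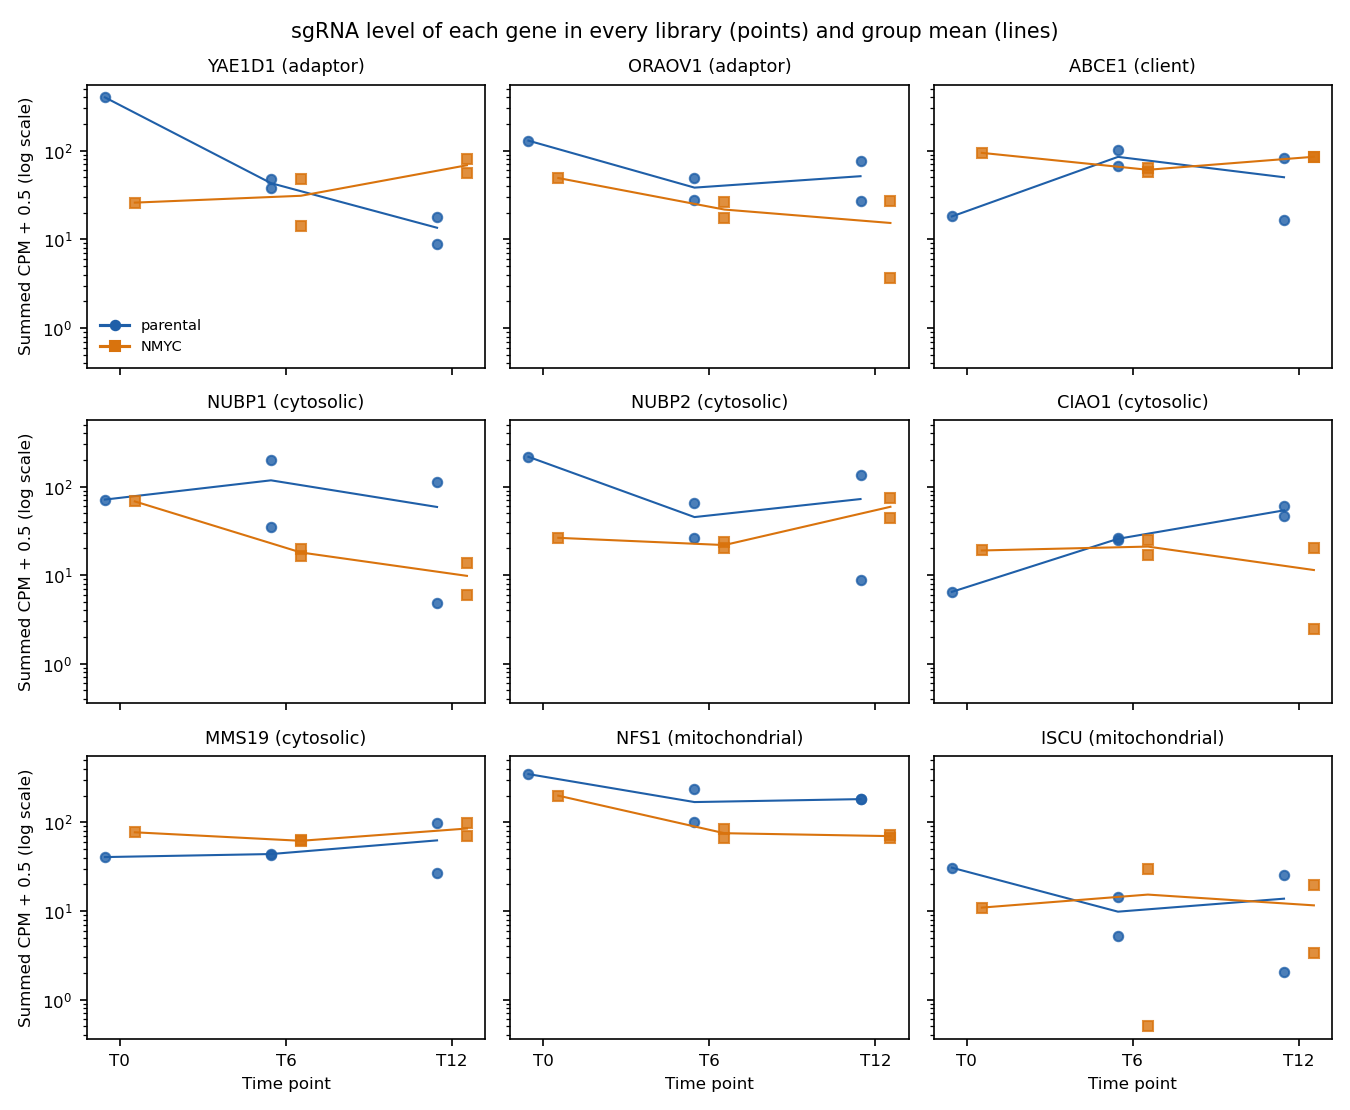
Summed CPM of the 3 sgRNAs of each gene plus 0.5 (log axis) at T0, T6 and T12 in parental (blue circles) and NMYC (orange squares) cells; points are libraries and lines join group means. YAE1D1 starts at 399 CPM in parental cells and at 25.5 CPM in NMYC cells, and the lines of the arms cross.

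ORAOV1, the partner of YAE1D1 in the adaptor, was below its T0 level in all 4 later libraries of both arms. By summed CPM, 32.1% of all genes were below T0 in all 4 later parental libraries and 31.6% in all 4 later NMYC libraries. HGLibB_34552 had 918 counts at T0 in parental cells, 363 and 10 at T6, then 197 and 979 at T12, and in NMYC cells 236, then 397 and 103, then 29 and 350. HGLibB_34553 had 572 counts at T0 in parental cells, 465 and 94 at T6, then 212 and 224 at T12, and in NMYC cells 370, then 100 and 107, then 20 and 16. HGLibB_34554 had 243 counts at T0 in parental cells, 17 and 87 at T6, then 0 and 16 at T12, and in NMYC cells 21, then 0 and 1, then 0 and 0. After scaling for depth the 3 sgRNAs were below T0 in every later parental library, and in NMYC cells HGLibB_34552 was the exception, above T0 in 1 culture at T6 and 1 at T12. The sums were 129 CPM in the parental T0 library, 48.3 and 27.4 at T6, then 26.4 and 75.7 at T12. NMYC cells had 48.7 CPM at T0, 25.5 and 16.8 at T6, then 3.20 and 26.4 at T12.

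From T0 to T12 the log2 value of ORAOV1 was -1.24 in parental cells (replicate SD 1.06; edgeR with rank aggregation, adjusted p = 0.987). In NMYC cells it was -1.71 (replicate SD 2.02; edgeR with rank aggregation, adjusted p = 0.939), and the cultures gave -3.48 and -0.87. The difference between the arms, -0.37, was smaller than its replicate SD of 2.28 (edgeR with rank aggregation, adjusted p = 0.992) and turned positive without parental T12 replicate 2 or without NMYC T12 replicate 1 (up to 0.50). Directly at T12 the NMYC cultures lay below the parental ones, with a log2 value of -1.68 (replicate SD 2.28) and hardly any gap between the nearest cultures (26.4 CPM in both arms to 3 digits; adjusted p = 0.972 by edgeR with rank aggregation). The adaptor genes both stood lower at T12 than at T0 in parental cells, and in NMYC cells YAE1D1 stood higher and ORAOV1 lower. With the mean of both T0 libraries as the baseline YAE1D1 stood lower in NMYC cells too (-0.58). YAE1D1 was chosen from the T0 and T12 libraries, so nothing is read from the comparison of the pair.

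ABCE1, the ribosome recycling factor that the adaptor serves, was higher at T6 than at T0 in parental cells and lower than at T0 in NMYC cells. HGLibB_00202 had 89 counts at T0 in parental cells, 709 and 69 at T6, then 221 and 778 at T12, and in NMYC cells 1056, then 450 and 250, then 411 and 80. HGLibB_00203 had 94 counts at T0 in parental cells, 496 and 81 at T6, then 7 and 499 at T12, and in NMYC cells 131, then 325 and 201, then 426 and 826. HGLibB_00204 had 53 counts at T0 in parental cells, 578 and 321 at T6, then 21 and 64 at T12, and in NMYC cells 25, then 458 and 270, then 463 and 271. In NMYC cells HGLibB_00202 was lower in all 4 later libraries while the other two were higher in all 4. The sums were 17.6 CPM in the parental T0 library, 102 and 67.5 at T6, then 16.1 and 83.3 at T12, and in NMYC cells 94.1, then 63.4 and 57.5, then 85.0 and 84.9.

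The log2 value of ABCE1 from T0 to T6 in parental cells was 2.44 (replicate SD 0.417; edgeR with rank aggregation, adjusted p for higher = 0.998), and all 3 sgRNAs were above T0 in both cultures. At T12 it was 1.57 with a replicate SD of 1.65 (edgeR with rank aggregation, adjusted p for higher = 1). In NMYC cells the value at T12 was -0.18, with nearly the same sum in both cultures (84.9 ± 0.104 CPM; edgeR with rank aggregation, adjusted p for lower = 0.9997), and 1.04 with the mean of both T0 libraries as the baseline. The separate sgRNAs differed between these cultures. HGLibB_00202 had 26.9 and 5.77 CPM, HGLibB_00203 27.9 and 59.6, and HGLibB_00204 30.3 and 19.5. Directly at T12 the arms differed by 0.84 (replicate SD 1.65; edgeR with rank aggregation, adjusted p for higher in NMYC = 0.993), and the parental culture at 16.1 CPM set most of that spread. Without it the value was -0.03.

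Among the cytosolic assembly genes NUBP1 stood lowest in NMYC cells, where each of its 3 sgRNAs was below T0 in all 4 later libraries. HGLibB_32856 had 490 counts at T0 in NMYC cells, 145 and 225 at T6, then 186 and 49 at T12, and in parental cells 474, then 510 and 1209, then 22 and 1315. HGLibB_32857 had 330 counts at T0 in NMYC cells, 150 and 13 at T6, then 16 and 20 at T12, and in parental cells 452, then 28 and 175, then 46 and 67. HGLibB_32858 had 48 counts at T0 in NMYC cells, 13 and 3 at T6, then 0 and 6 at T12, and in parental cells 21, then 64 and 7, then 0 and 423. In parental cells the replicate cultures disagreed, with HGLibB_32856 and HGLibB_32858 high in T12 replicate 2 and low in replicate 1. Summed, NUBP1 had 67.4 CPM at NMYC T0, 15.8 and 19.2 at T6, then 13.2 and 5.41 at T12. Parental cells had 70.7 CPM at T0, 34.4 and 199 at T6, then 4.39 and 112 at T12, a 23-fold gap between the T12 cultures (23.0 with 0.5 CPM added).

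In NMYC cells the log2 value of NUBP1 was -1.68 from T0 to T6 (replicate SD 0.192; edgeR with rank aggregation, adjusted p = 0.945). From T0 to T12 it was -2.82 (replicate SD 0.859; edgeR with rank aggregation, adjusted p = 0.883). In parental cells it was -0.18 from T0 to T12 with a replicate SD of 3.20, where leaving out replicate 1 gave 0.91 and leaving out replicate 2 gave -3.61. The T0 libraries of the arms were close, with a log2 ratio of NMYC to parental of -0.07. Directly compared, NMYC against parental, the log2 value was -2.50 at T6 (replicate SD 1.79; edgeR with rank aggregation, adjusted p = 0.963) and -2.51 at T12 (replicate SD 3.31; edgeR with rank aggregation, adjusted p = 0.972). The cultures of the arms did not overlap at T6 and did overlap at T12. Leaving out 1 library moved the T6 value between -3.20 and -1.03, the latter without parental T6 replicate 2, and without parental T12 replicate 2 the value at T12 was 0.96.

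NUBP2, which pairs with NUBP1 in the scaffold, did not share this course. HGLibB_32859 had 2866 counts at T0 in parental cells, 374 and 91 at T6, then 9 and 1565 at T12, and in NMYC cells 70, then 376 and 138, then 647 and 1008. HGLibB_32860 had 21 counts at T0 in parental cells, 69 and 44 at T6, then 114 and 607 at T12, and in NMYC cells 260, then 55 and 108, then 0 and 13. HGLibB_32861 had 4 counts at T0 in parental cells, 2 and 311 at T6, then 7 and 1 at T12, and in NMYC cells 3, then 18 and 0, then 17 and 0. In each arm HGLibB_32859 and HGLibB_32860 went in opposite directions, and each did the reverse in the other arm. The sums, 216 CPM in the parental T0 library, 25.4 and 63.9 at T6, then 8.40 and 135 at T12, followed the abundant HGLibB_32859. NMYC cells had 25.8 CPM at T0, 23.1 and 19.6 at T6, then 43.4 and 73.6 at T12.

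From T0 to T12 the log2 value of NUBP2 was -1.49 in parental cells (replicate SD 2.78; edgeR with rank aggregation, adjusted p for lower = 0.987) and 1.14 in NMYC cells (replicate SD 0.534; edgeR with rank aggregation, adjusted p for higher = 0.969). The difference between the arms was 2.73 (replicate SD 2.83; edgeR with rank aggregation, adjusted p for higher = 0.993). It was -0.22 directly at T12, and the log2 ratio of the NMYC T0 library to the parental one was -3.04. With the mean of both T0 libraries as the baseline the difference is this same comparison by construction, since a shared baseline cancels. NUBP2 and YAE1D1 were the genes of the 9 with the largest T0 gap between the arms, both with the parental library on the higher side.

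CIAO1, the propeller protein at the centre of the targeting complex, was scarce at T0 in parental cells and higher in all 4 later libraries. By summed CPM, 20.8% of all genes were above T0 in all 4 later parental libraries. HGLibB_09666 had 13 counts at T0 in parental cells, 367 and 141 at T6, then 920 and 721 at T12, and in NMYC cells 120, then 249 and 43, then 182 and 22. HGLibB_09667 had 66 counts at T0 in parental cells, 7 and 25 at T6, then 9 and 19 at T12, and in NMYC cells 118, then 139 and 126, then 0 and 5. HGLibB_09668 had 1 count at T0 in parental cells, 76 and 6 at T6, then 2 and 8 at T12, and in NMYC cells 0, then 90 and 37, then 122 and 0. The parental sums of 5.97 CPM at T0, 25.7 and 24.7 at T6, then 60.2 and 46.5 at T12 were carried by HGLibB_09666 at T12, and HGLibB_09667 was lower than T0 in all 4 of these libraries. NMYC cells had 18.5 CPM at T0, 24.6 and 16.4 at T6, then 19.9 and 1.95 at T12. The log2 value from T0 to T12 was 3.15 in parental cells (replicate SD 0.261; edgeR with rank aggregation, adjusted p for higher = 0.986) and -0.76 in NMYC cells (replicate SD 2.16; adjusted p for lower = 0.9997 by the same test), where leaving out replicate 2 gave 0.36. The arms differed by -3.81 in these changes (replicate SD 2.18; edgeR with rank aggregation, adjusted p = 0.992), by -2.17 directly at T12 (replicate SD 2.18; adjusted p for lower = 0.986 by the same test) and by -0.08 directly at T6. The log2 ratio of the NMYC T0 library to the parental one was 1.55.

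MMS19, the targeting subunit known for clients in DNA metabolism, had a T12 culture on either side of T0 in both arms. HGLibB_29510 had 162 counts at T0 in parental cells, 335 and 281 at T6, then 366 and 762 at T12, and in NMYC cells 482, then 974 and 388, then 633 and 550. HGLibB_29511 had 86 counts at T0 in parental cells, 209 and 7 at T6, then 26 and 790 at T12, and in NMYC cells 158, then 171 and 105, then 358 and 792. HGLibB_29512 had 288 counts at T0 in parental cells, 225 and 10 at T6, then 17 and 19 at T12, and in NMYC cells 347, then 61 and 268, then 82 and 29. HGLibB_29512 was below T0 in all 8 later libraries, and HGLibB_29510 was above T0 in all 4 of the parental ones. The sums were 40.0 CPM in the parental T0 library, 43.9 and 42.7 at T6, then 26.4 and 97.6 at T12, and in NMYC cells 76.6, then 62.0 and 60.7, then 70.2 and 98.9. The log2 value from T0 to T12 was 0.72 in parental cells (replicate SD 1.32, -0.34 without replicate 2) and 0.11 in NMYC cells (replicate SD 0.348), and the adjusted p for higher was 1 in both (edgeR with rank aggregation).

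In mitochondria the desulfurase gene NFS1 had a lower sum than at T0 in all 8 later libraries of the 2 arms. Of all genes, 32.1% were lower in all 4 later parental libraries and 31.6% in all 4 later NMYC libraries. HGLibB_31798 had 885 counts at T0 in parental cells, 756 and 299 at T6, then 1178 and 365 at T12, and in NMYC cells 944, then 704 and 158, then 224 and 325. HGLibB_31799 had 2447 counts at T0 in parental cells, 469 and 284 at T6, then 279 and 59 at T12, and in NMYC cells 155, then 159 and 72, then 3 and 50. HGLibB_31800 had 1348 counts at T0 in parental cells, 528 and 1071 at T6, then 1380 and 2488 at T12, and in NMYC cells 1468, then 769 and 595, then 873 and 550. In NMYC cells each of the 3 sgRNAs was below T0 in all 4 later libraries after scaling, and in parental cells HGLibB_31799 was the one below T0 in all 4. The sums were 349 CPM in the parental T0 library, 100 and 237 at T6, then 183 and 181 at T12, and in NMYC cells 199, then 83.9 and 65.8, then 71.9 and 66.7.

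The log2 value of NFS1 from T0 to T12 was -0.84 in parental cells (replicate SD 0.0135; edgeR with rank aggregation, adjusted p = 0.987). In NMYC cells it was -1.55 (replicate SD 0.0766; edgeR with rank aggregation, adjusted p = 0.939) and had reached -1.17 at T6 (replicate SD 0.247; adjusted p = 0.985 by edgeR with rank aggregation). The difference between the arms in the change from T0 was -0.59 (replicate SD 0.0778; edgeR with rank aggregation, adjusted p = 0.992). Directly at T12 the log2 value of NMYC against parental was -1.32 (replicate SD 0.0778; edgeR with rank aggregation, adjusted p = 0.972), and at T6 it was -0.96 (replicate SD 0.91; edgeR with rank aggregation, adjusted p = 0.989). The cultures of the arms did not overlap at either time, and the T0 library of NMYC cells had a log2 ratio of -0.81 to the parental one. NFS1 had the smallest replicate spread of the 9 genes at parental T12, a 1.01-fold gap where the median gene had 2.14-fold. That gap is one of sums, in which differences of the sgRNAs cancelled. In those cultures HGLibB_31798 had 76.1 and 22.7 CPM, HGLibB_31799 18.0 and 3.66, and HGLibB_31800 89.2 and 155.

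ISCU, the scaffold on which NFS1 delivers sulfur, had too few counts in several libraries to place. HGLibB_23618 had 162 counts at T0 in parental cells, 1 and 22 at T6, then 0 and 9 at T12, and in NMYC cells 2, then 0 and 261, then 79 and 0. HGLibB_23619 had 243 counts at T0 in parental cells, 116 and 8 at T6, then 218 and 15 at T12, and in NMYC cells 102, then 0 and 110, then 216 and 39. HGLibB_23620 had 0 counts at T0 in parental cells, 126 and 3 at T6, then 168 and 1 at T12, and in NMYC cells 30, then 0 and 0, then 0 and 0. NMYC T6 replicate 1 held 0 counts of all 3 sgRNAs, which allows up to 0.154 CPM (3 counts over the gene), while replicate 2 held 29.6 CPM. The other sums were 30.2 CPM in the parental T0 library, 13.9 and 4.73 at T6, then 24.9 and 1.55 at T12, and in NMYC cells 10.4 at T0 and 19.3 and 2.81 at T12. From T0 to T12 the log2 value was -1.06 in parental cells (replicate SD 2.57; edgeR with rank aggregation, adjusted p for lower = 0.987) and 0.06 in NMYC cells (replicate SD 1.82; edgeR with rank aggregation, adjusted p for lower = 0.999), with 1.11 and -1.72 in the separate NMYC cultures.

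**Figure D2:**
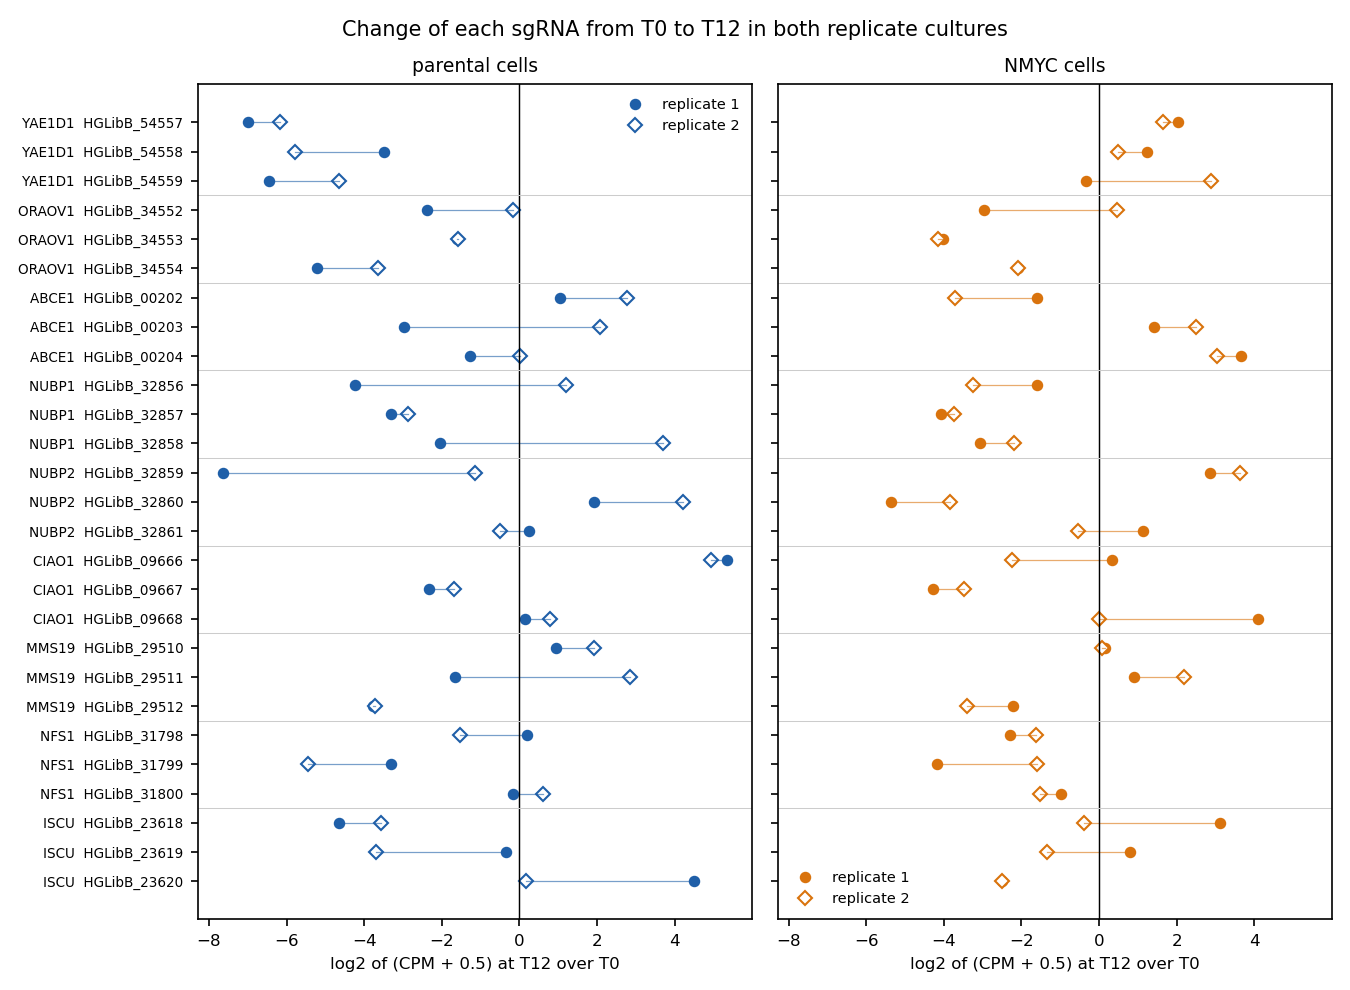
log2 ratio of CPM plus 0.5 at T12 over T0 for each of the 27 sgRNAs, with filled points for replicate 1 and open diamonds for replicate 2; parental cells on the left, NMYC cells on the right. The 3 sgRNAs of YAE1D1 lie left of 0 in parental cells, and those of NUBP1 and NFS1 lie left of 0 in NMYC cells.

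Counted over the genes, 5 of 9 had a lower sum in both T12 cultures than at T0 in parental cells (YAE1D1, ORAOV1, NUBP2, NFS1 and ISCU), where 41.8% of all genes did, and 1 (CIAO1) a higher one, where 31.3% did. In NMYC cells 4 of 9 were lower (ORAOV1, ABCE1, NUBP1 and NFS1) against 37.8% of all genes, and 2 (YAE1D1 and NUBP2) were higher against 31%. Each of these 4 counts is within 2 of the count that the share of all genes would give for 9 genes. From T0 to T6 the same 5 genes were lower in both parental cultures (44.9% of all genes) and ABCE1, CIAO1 and MMS19 higher (29.4%), and in NMYC cells 6 of 9 were lower (ORAOV1, ABCE1, NUBP1, NUBP2, MMS19 and NFS1; 48.4%) and 0 higher (30.1%). All 3 sgRNAs of a gene below T0 in all 4 later libraries were seen for YAE1D1 and ORAOV1 in parental cells, where 1.72% of the genes with 3 sgRNAs had this, and for NUBP1 and NFS1 in NMYC cells, where 1.5% had it. YAE1D1 was chosen for its place in parental cells, so nothing is read from its count there. The counts of this paragraph use CPM that is not relative to the median gene. Relative to it, ABCE1 in the NMYC T12 cultures stood at 0.11 and -0.15, on both sides of 0. NUBP2 in the NMYC T6 cultures did so as well, at 0.14 and -0.06.

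None of the other 8 genes passed the test between T0 and T12 in either arm or in the difference (edgeR with rank aggregation, 0% of all genes called in each direction). At an unadjusted p under 0.05, 0 of the 8 were lower in parental cells (5.11% of all genes) and 0 higher (4.85%). In NMYC cells 3 of the 8, NUBP1, NFS1 and ORAOV1, were lower (5.02% of all genes) and 0 higher (5.07%). In the difference 0 were lower (4.78%) and 0 higher (4.85%). DESeq2 p-values in the same rank aggregation and edgeR on the summed counts also called 0 of these 8 genes in these contrasts. From T0 to T6, again with 0% of all genes called, 1 of the 8 was lower in NMYC cells at an unadjusted p under 0.05 (NUBP1; 5.12% of all genes) and 0 in parental cells (5.01%), while 0 were higher in NMYC cells (4.96%) or parental cells (4.88%). From T6 to T12, with 0% of all genes called, 0 of the 8 were lower or higher at an unadjusted p under 0.05 in parental cells (4.9% and 4.89% of all genes) or NMYC cells (4.96% and 4.7%).

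Between the arms directly, 1 of the 8 was lower in NMYC cells at T6 at an unadjusted p under 0.05 (NUBP1; 4.97% of all genes) and 3 were at T12 (NFS1, ORAOV1 and NUBP1; 5.11%), with 0% of all genes called at either time. None of the 8 was higher in NMYC cells at that level at T6 (5.11% of all genes) or T12 (4.89%). At T6 the NMYC cultures lay wholly below the parental ones for 6 of the 9 genes (ORAOV1, ABCE1, NUBP1, NUBP2, CIAO1 and NFS1; 18.7% of all genes) and wholly above for MMS19 (15% of all genes). These sums are not relative to the median gene, whose own log2 ratio at T6 was -0.206. The nearest T6 cultures, NMYC against parental, stood close for CIAO1 (24.6 and 24.7 CPM), NUBP2 (23.1 and 25.4), ORAOV1 (25.5 and 27.4) and ABCE1 (63.4 and 67.5). For NUBP1 they had 19.2 and 34.4 CPM and for NFS1 83.9 and 100 CPM. At T12 the NMYC cultures lay wholly below for ORAOV1, CIAO1 and NFS1 (19% of all genes) and above for YAE1D1 and ABCE1 (14.8%). The comparisons at T12 share their T12 libraries with the changes from T0, so NFS1, ORAOV1 and NUBP1 there rest on partly the same data. Of the 24 sgRNAs against the 8 genes, 0 passed on their own from T0 to T12 in parental cells (0.0226% of all sgRNAs lower) or in NMYC cells (0.0132% lower) by edgeR. At an unadjusted p under 0.05, 1 sgRNA was lower (5.92% of all sgRNAs) and 1 higher (5.31%) in parental cells, and 4 were lower (5.31%) and 1 higher (1.48%) in NMYC cells.

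The level at T0 moved with the change from it across all genes. With genes in 10 bins of equal size by T0 level, the median log2 value from T0 to T12 in parental cells went from 3.22 in bin 1 to -1.51 in bin 10, and in NMYC cells from 1.97 to -1.58. The T0 library enters both measures, and its part in the values of single genes was not tested. In bin 10 both T12 cultures were below T0 for 95.9% of parental genes and 92.3% of NMYC genes. YAE1D1, NFS1 and NUBP2 lay in bin 10 and ORAOV1 in bin 9 of the parental T0 library. NFS1 at -0.84 was above the interquartile range of its bin (-2.16 to -0.98), NUBP2 at -1.49 and ORAOV1 at -1.24 were inside theirs, and CIAO1 at 3.15 was inside that of bin 1 (2.32 to 4.02). ABCE1, NUBP1 and MMS19 were also inside theirs, and ISCU at -1.06 was below that of bin 4 (-0.147 to 1.25), which rested on 1 library, since its cultures gave -0.02, inside the range, and -3.66. For NUBP2, ORAOV1, ABCE1 and NUBP1 the separate cultures lay outside these ranges on opposite sides. They gave -4.35 and -0.43, -2.02 and -0.52, 0.12 and 2.46, and -3.61 and 0.91, in that order. Those of MMS19 gave -0.34, inside its range, and 1.52, above it (ranges from both cultures). YAE1D1 at -4.79 was below the range of bin 10, which its choice as the gene ranked lowest in this contrast had all but fixed. By log2 value it was not the lowest gene, at percentile 0.209 of all tested genes.

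In NMYC cells NUBP1 lay in bin 7, whose interquartile range was -1.01 to 0.227, and its value of -2.82 was lower. ORAOV1 at -1.71 was below that of bin 6 (-0.69 to 0.602), CIAO1 at -0.76 below that of bin 2 (0.357 to 1.80) and ISCU at 0.06 below that of bin 1 (0.962 to 2.74). NFS1 at -1.55 was near the median of bin 10, -1.58. YAE1D1 at 1.37 was just above the range of bin 4 (-0.0983 to 1.14), NUBP2 at 1.14 inside it, and MMS19 and ABCE1 were inside theirs. In the separate cultures NUBP2 gave 0.99 and 1.49, MMS19 0.13 and 0.37, and ABCE1 0.11 and -0.15. The higher culture of each lay above its range. The places of CIAO1 and ISCU rested on NMYC T12 replicate 2: without it CIAO1 stood at 0.36, at the edge of its range, and ISCU at 1.11, inside its range (ranges from both cultures). NUBP1 and ORAOV1 lay below theirs without either T12 culture in turn (-3.52 to -2.05 and -3.48 to -0.87).

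**Figure D3:**
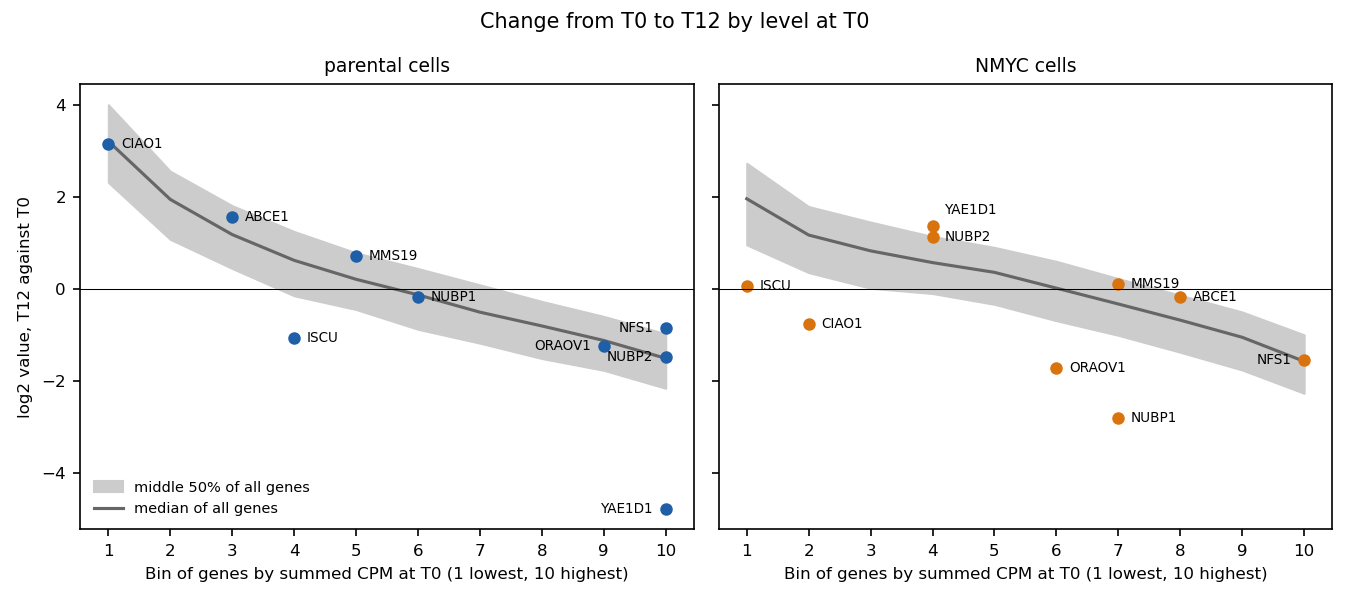
log2 value from T0 to T12 against the bin of the summed CPM at T0 (1 lowest, 10 highest) in parental and NMYC cells; the line is the median and the band the interquartile range of all tested genes, and points are the 9 genes. YAE1D1 lies far below the band in parental cells at -4.79, and NUBP1 below it in NMYC cells at -2.82.

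Agreement among the sgRNAs of a gene was compared over the 10 libraries as the median Pearson correlation of the 3 pairs, on log2(CPM + 1). It was 0.603 for YAE1D1, 0.53 for NUBP1, 0.4 for ORAOV1, 0.345 for NFS1 and 0.342 for ISCU. ABCE1 had 0.108, MMS19 0.0103, CIAO1 -0.129 and NUBP2 -0.151, and the median over all genes with 3 sgRNAs was -0.0288. The libraries share depth and the T0 pools, so these are descriptions. YAE1D1 was chosen from the T0 and T12 libraries, which enter here, so nothing is read from its agreement. The genes whose summed level followed YAE1D1 most closely over the 10 libraries, of 15247 compared, were TMEM117 (Pearson r = 0.953), PSMD2, a proteasome subunit (0.926), FIBP (0.912), the transcription factor gene ELK1 (0.909) and the Golgi protein gene ACBD3 (0.909). Each of these 5 genes had its highest level in the parental T0 library, as YAE1D1 itself had. TMEM117 had 211 CPM there against 32.4 and 25.9 in the parental T12 cultures. The 5 were picked for following YAE1D1, which was chosen from the T0 and T12 libraries, so nothing is read from this shared peak. Of the other 8 genes NUBP2 was most like YAE1D1 at r = 0.51, with 1916 genes closer, ORAOV1 had 0.184 and CIAO1 had -0.677.

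The wider pathway was read in 4 lists, written with earlier results of these data known, and 0 of their genes passed the test in either direction in these contrasts (edgeR with rank aggregation). Of 23 mitochondrial assembly genes 12 lay below the median gene from T0 to T12 in parental cells (median log2 value -0.36) and 11 in NMYC cells (0.05). The lowest in parental cells were IBA57, a late-acting assembly factor (-2.80), and NUBPL, which serves respiratory complex I (-2.66). The highest were the glutaredoxin GLRX5 (3.41; edgeR with rank aggregation, adjusted p = 0.983) and LYRM4, the partner of NFS1 (3.22). In NMYC cells BOLA1 (-2.33) and the cochaperone HSCB (-2.30) stood lowest, and GFER (1.96) and the ferredoxin reductase FDXR (1.43) highest.

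Of 11 cytosolic assembly genes tested, 5 lay below the median gene in parental cells (median 0.72) and 6 in NMYC cells (-0.76). YAE1D1 and NUBP2 were lowest in parental cells, and CIAO1 and the glutaredoxin GLRX3 (1.89) highest. NUBP1 and ORAOV1 were lowest in NMYC cells, and CIAPIN1, the electron donor of the early cytosolic steps, was highest (1.82), followed by YAE1D1. The genes of the early cytosolic steps thus stood at both ends of the list in NMYC cells.

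Nuclear and cytosolic iron-sulfur proteins, with ABCE1 among them, had 7 of 23 below the median gene in parental cells (median 0.80) and 10 of 23 in NMYC cells (0.05). ERCC2, a helicase of transcription and repair with 2 sgRNAs (-3.35), and the tRNA-modifying ELP3 (-2.30) were lowest in parental cells, and the DNA polymerase gene POLD1 (3.65) and the glycosylase NTHL1 (3.29) highest. In NMYC cells the cytosolic aconitase ACO1 (-2.88) and the glycosylase MUTYH (-1.74) were lowest, and CDKAL1 (2.03) and EXO5 (1.63) highest. Mitochondrial iron-sulfur proteins had 12 of 16 below in parental cells (median -0.57) and 5 of 16 in NMYC cells (0.37). CISD3 (-3.58; adjusted p = 0.945 by edgeR with rank aggregation) and CDK5RAP1 (-2.58) were lowest in parental cells, and the complex I subunit NDUFS1 (2.80) and ETFDH (0.64) highest. In NMYC cells CDK5RAP1 (2.37) and SDHB, a subunit of succinate dehydrogenase (2.13), were highest.

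**Figure D4:**
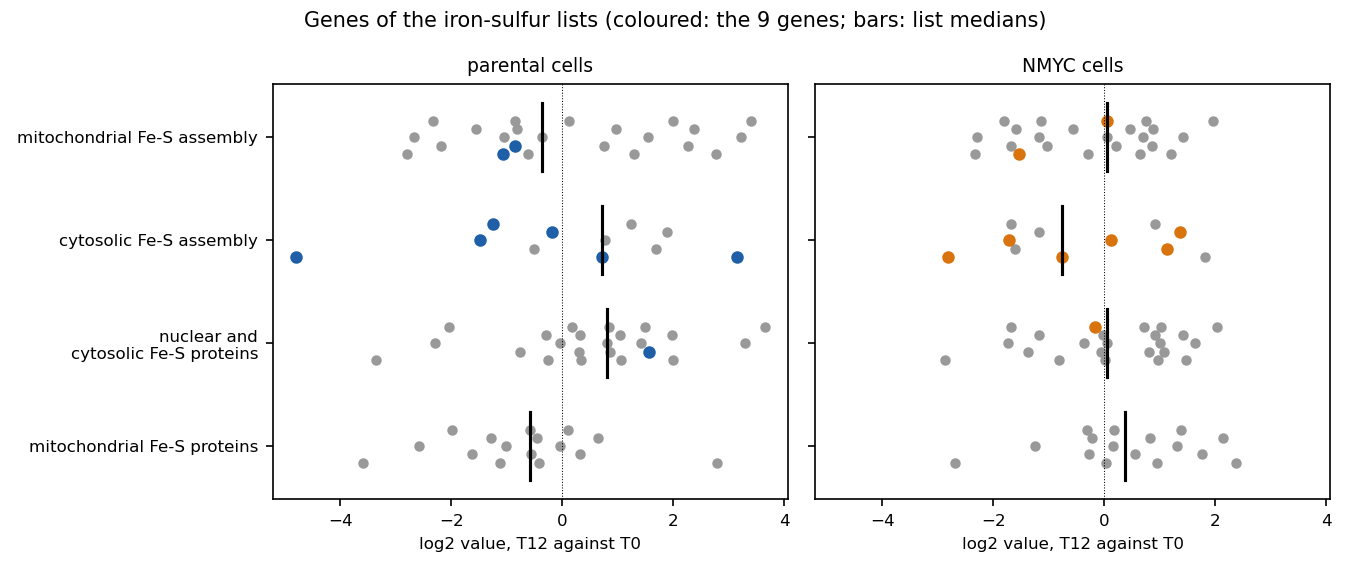
log2 value from T0 to T12 of each tested gene in the 4 iron-sulfur lists in parental and NMYC cells; coloured points are the 9 genes, grey points the others, black bars list medians, and the dotted line the median gene. In every list the points spread over both sides of the dotted line, and in NMYC cells NUBP1 at -2.82 is the lowest of the cytosolic assembly list.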

How the data were processed

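Genomic DNA of 10 libraries was sequenced as sgRNA amplicons. The authors' deposited values are raw read counts, 1 row per sgRNA and 1 column per library. MAGeCK is the tool in the submitters' processing notes; its version, the trimming and the mismatch setting are not stated there. The columns matched samples by title, and 0 were left over. Of 55849 sgRNAs listed, 53040 with a mean count of at least 20 were kept, and 18197 genes with at least 2 of them were tested. Each sgRNA was fitted with edgeR 4.0.16 in R 4.3.3 (TMM, quasi-likelihood, 6 group means, 4 residual degrees of freedom); a lone T0 library takes its spread from the groups with 2. Robust rank aggregation gave the gene p-values, with an exact null and alpha set at a one-sided sgRNA p of 0.25; the threshold was an adjusted p of 0.05. The procedure was tested on simulated data, whose outcome is not given here, so nothing is read from it about what could be called. DESeq2 1.42.0 was an alternative. Both cultures of an arm come from 1 infection, so the p-values cover only variation since that infection. The 9 genes and the lists were chosen with earlier results of these data known. Named beside the 9 genes were, per list, the 2 lowest and the 2 highest log2 values per arm, and the 5 genes most like YAE1D1. Part of the values this rule names is not reported here. The list symbols BOLA2, BOLA2B and DNA2 were not matched, and 1 cytosolic assembly gene had too few kept sgRNAs. Sequences and coordinates of the sgRNAs are not used here.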

Additional observations from a re-analysis of the deposited data

Results flagged for a closer look

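In 4 cases both replicate cultures of one arm lay on one side of the T0 level and both of the other arm on the opposite side, relative to the median gene. The share of all genes with such opposite moves was not computed, so nothing is read from the number of cases. For YAE1D1 from T0 to T12 the mean of the separate cultures was -4.73 in parental and 1.51 in NMYC cells, a difference of 6.23, which is not tested because the gene was chosen from it. For NUBP2 over the same interval it was -2.39 and 1.24, a difference of 3.63 (edgeR with rank aggregation for the difference, adjusted p = 0.993). For ABCE1 from T0 to T6 it was 2.55 and -0.32, a difference of -2.87. Directly at T6 the ABCE1 value was -0.28 (replicate SD 0.429), turning to 0.11 without parental T6 replicate 1, and with the mean of both T0 libraries as the baseline the NMYC change from T0 to T6 was 0.88. For MMS19 from T0 to T6 it was 0.46 and -0.00499, a difference of -0.46. The NMYC cultures of MMS19 were at -0.00119 and -0.00878, so the opposite side there is a matter of hardly any distance, and with both T0 libraries as the baseline the NMYC change was 0.47. Directly at T6 the MMS19 sum was higher in NMYC cells by 0.70 (replicate SD 0.0357), with the same sign in all 12 alternatives, and did not pass the test (edgeR with rank aggregation). For each of its sgRNAs the T6 cultures of the arms overlapped. HGLibB_29512 had 12.9 and 1.43 CPM in parental cells and 3.14 and 21.4 CPM in NMYC cells. The difference between the arms from T0 to T6 was not tested. In each of the 4 the T0 libraries of the arms also differed, by -3.95 for YAE1D1, -3.04 for NUBP2, 2.38 for ABCE1 and 0.93 for MMS19 (NMYC over parental, log2), and the part of this in the differences was not tested.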

How the results depend on the processing

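None of the 8 genes other than YAE1D1 was called in any of the 9 contrasts under any alternative run, and with 1 T0 library per arm and replicate cultures that agree poorly the spread limits what could be called. Over all genes the count moved from 0 in few settings. On summed counts edgeR called 1 gene in parental cells from T0 to T12 (SLC35G3) and 2 in NMYC cells (DNMBP and SPATA3), and with sgRNAs of 30 or more counts in each T0 library 1 was called in NMYC cells from T0 to T6 (ITGAV). Leaving out 1 library gave 0 to 1 called genes from T0 to T12 in parental cells (1, SNRNP70, without parental T12 replicate 1) and in NMYC cells (1, GRHL1, without parental T12 replicate 2), and 0 to 1 from T6 to T12 in NMYC cells and directly at T12 (1, DEFB129, without NMYC T12 replicate 2). With the replicate number as a block 0 genes were called in each contrast, as with the culture as a block, added after the data were seen. Same-numbered cultures did not deviate together: the correlation of their deviations between T6 and T12 was 0.0687 in parental and -0.00874 in NMYC cells. Of the 990 log2 values of the 9 genes under alternatives, 936 kept their sign and 54 did not, and 45 of 81 values kept it throughout, among them NFS1, NUBP1 and ORAOV1 from T0 to T12 in NMYC cells (-1.93 to -1.21, -3.52 to -2.05 and -3.48 to -0.87) and YAE1D1 in parental cells (-5.24 to -2.97). YAE1D1 was chosen from that contrast, so nothing is read from its sign. The values are relative to the median gene, which offsets most of a change in size factors. No run left out a T0 library, so these counts say little about the dependence on T0. At the minimum of 30 counts in each T0 library CIAO1, NUBP2 and ISCU gave no value.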

Other observations

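The difference NMYC minus parental of the changes from T0 to T12 was read for the 4 lists as well, as a description. Mitochondrial iron-sulfur proteins had 12 of 16 genes above the median gene with a median of 1.48, and 2 were higher and 0 lower at an unadjusted p under 0.05, where 4.85% and 4.78% of all genes were: CISD3, a mitochondrial matrix protein, and CDK5RAP1, a tRNA-modifying enzyme. Mitochondrial assembly genes had 9 of 23 above with a median of -0.59, and 3 (NFU1, BOLA1 and SLC25A37, an iron importer) were lower and 1 (SLC25A28, its close relative) higher at an unadjusted p under 0.05, against the same shares of all genes. Cytosolic assembly genes had 3 of 11 above with a median of -0.67, and nuclear and cytosolic iron-sulfur proteins 11 of 23 with a median of -0.28, and in both lists 0 were lower or higher at an unadjusted p under 0.05. After adjustment over all genes 0 passed in each list (edgeR with rank aggregation). Directly at T6, without T0, the mitochondrial iron-sulfur proteins had 2 of 16 above the median gene, with a median of -0.73, and directly at T12 they had 11 of 16 above, with a median of 0.28.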
